A study of Mus musculus with 2 samples.

Results

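The autosomal CpGs that were read deeply on both DNA strands were described, to ask how alike the 2 strands of a CpG were methylated in mouse hippocampus. A CpG was kept where the cytosine of the forward strand (F), at a given base, and the cytosine of the reverse strand (R), at the next base, each had a coverage of at least 10 reads in both libraries on chromosomes 1 to 19. This kept 59759 CpGs of the 6569528 listed in either library. They were 2.70% of the autosomal CpGs with a cytosine that reached this coverage in both libraries. DNA came from the hippocampus of C57BL/6 mice, a region of the brain that forms memories. There was 1 library of ATO offspring, given 5000 ppb arsenic trioxide in drinking water, and 1 library of untreated controls. For the ATO offspring, exposure began before their parents mated, went on to lactation and continued in the weaned young, whose age and sex the labels do not give. Whether a library held 1 animal or a pool is not stated in the labels, and with 1 library per group every difference between ATO and control compares these 2 libraries and not the treatments.

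A CpG reads the same on both strands, so each CpG offers a pair of cytosines that face each other. After DNA is copied, the maintenance methyltransferase Dnmt1 finds CpGs that carry the mark on the old strand alone and adds it to the new one, which keeps the strands alike. A CpG that stays methylated on 1 strand is called hemimethylated. Neurons are rich in hydroxymethylcytosine, an oxidised form that bisulfite reads as methylated. F reads and R reads come from different molecules, so an equal level on both strands does not show that each molecule was methylated on both. No mm9 genome or annotation was used here, so no sequence or gene context is given.

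Reads lay mostly on the strand targeted by the capture. The reverse strand held 92.7% of all calls in each library, of 147924810 calls in the ATO and 135987272 in the control library. At the CpGs read on both strands the imbalance was smaller. The median coverage in the ATO library was 39 reads on F and 58 on R, and in the control library 36 on F and 54 on R. R was the deeper strand at 63.4% of these CpGs in the ATO and 63.8% in the control library. The log2 ratio of R to F coverage correlated between the libraries at r = 0.92 over the 59759 CpGs, a description only. The CpGs came in groups. Taking CpGs at most 100 bp apart as 1 cluster gave 14028 clusters, and 67.6% of the CpGs lay in clusters of 5 or more, so most share reads with a neighbour. The count by chromosome lay between 1150 and 6933.

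The 2 strands had nearly the same average level. In the ATO library the mean level was 52.9% on F and 52.8% on R, and in the control library it was 53.6% on F and 53.6% on R. The mean gap, F minus R, was 0.14 points in the ATO library (SD between CpGs 10.2) and 0.040 points in the control library (SD 10.1). By chromosome the mean gap was above 0 on 14 of 19 autosomes in the ATO and on 9 of 19 in the control library. Across CpGs, F and R levels correlated at a Pearson r of 0.97 in each library. CpGs are not replicates, and much of this r reflects the wide spread of levels from CpG to CpG.

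Most CpGs were methylated alike on both strands. A gap under 10 points was found at 77.7% of the CpGs in the ATO library (46432 of 59759, exact 95% interval 77.4 to 78.0) and at 78.0% in the control library (46593, interval 77.6 to 78.3). These Clopper-Pearson intervals take CpGs as independent and cover counting error only. The median size of the gap was 4.20 points in the ATO and 4.17 points in the control library. Both strands were under 20% at 33.0% of CpGs in the ATO and 33.4% in the control library. Both were at 80% or above at 36.8% in the ATO and 38.7% in the control library. Both lay between 20 and 80% at 17.9% in the ATO and 16.0% in the control library. At the remaining 12.3% in the ATO and 11.8% in the control library the strands fell into different classes.

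**Figure D1:**
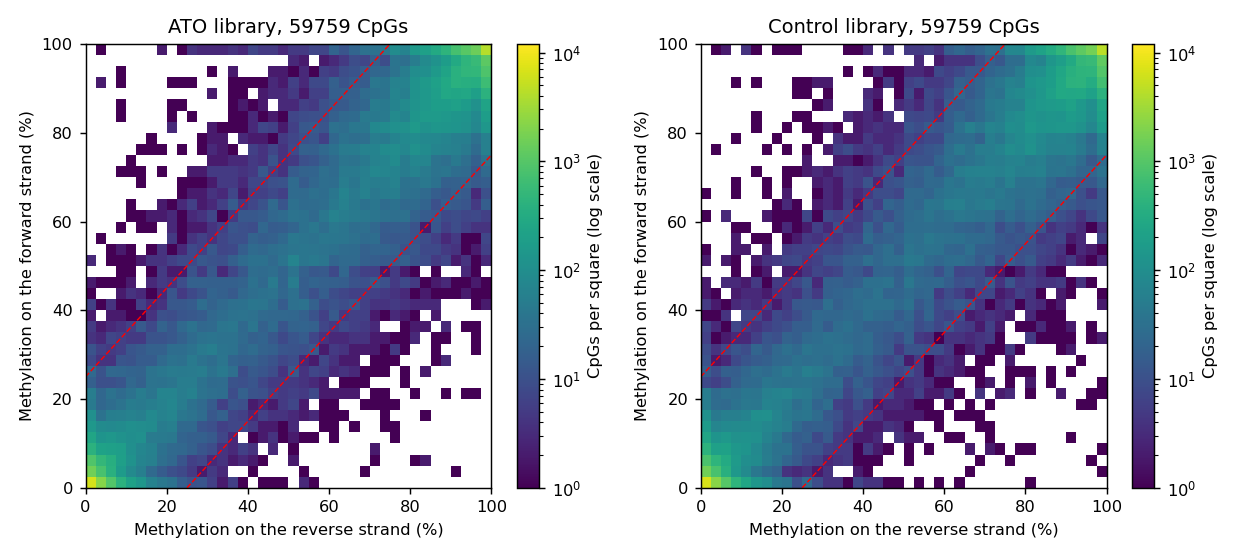
Methylation level on the forward strand (vertical, %) against the reverse strand (horizontal, %) for 59759 CpGs, in the ATO library (left) and the control library (right); colour gives the number of CpGs per square of 2.5 by 2.5 points on a log scale, and dashed lines mark a gap of 25 points. Most CpGs sit in the corners where both strands are under 20% or at 80% or above, and 3.63% of CpGs in the ATO and 3.39% in the control library lie on or beyond the dashed lines.

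Large gaps were uncommon and took both directions. A gap of at least 25 points was measured at 2172 CpGs in the ATO library (3.63%, interval 3.49 to 3.79) and at 2026 in the control library (3.39%, interval 3.25 to 3.54). Opposite levels, with 1 strand at 80% or above and the other at 20% or under, as a fully hemimethylated CpG would read, were seen at 11 CpGs with F high and 7 with R high in the ATO library. In the control library there were 13 with F high and 9 with R high. Of the 30 CpGs with opposite levels in either library, 10 had them in both, with the same strand high. The share of large gaps was higher at low coverage. Among CpGs whose lowest coverage was 10 to 14 reads, 7.57% had a gap of at least 25 points in the ATO and 7.05% in the control library. Among those with 80 reads or more on each strand it was 0.58% in the ATO and 0.67% in the control library. The mean level also differed between these classes, at 59.0% with 10 to 14 reads and 37.8% with 80 or more. At 20 to 80% alone, the share was 23.6% in the ATO and 23.1% in the control library with 10 to 14 reads, and 1.77% in the ATO and 2.10% in the control library with 80 or more. Just inside the coverage limit, at a lowest coverage of 10, the share was 7.89% in the ATO and 8.17% in the control library over 3572 CpGs. Just outside, at 9, it was 9.23% in the ATO and 8.57% in the control library over 4140 CpGs.

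Each CpG was then tested for a difference between strands within a library by Fisher's exact test (two-sided) on C and T calls. A CpG was called at a Benjamini-Hochberg adjusted p under 0.05 and a gap of at least 25 points. In the ATO library 435 CpGs were called, 241 with F higher and 194 with R higher. In the control library 341 were called, 180 with F higher and 161 with R higher. Over all 61956 CpGs tested, which hold the autosomal ones and those elsewhere, the share called in the ATO library was 0.744%, made up of 0.420% with F higher and 0.324% with R higher. In the control library it was 0.579%, made up of 0.310% with F higher and 0.270% with R higher. Before adjustment, p was under 0.05 at 6088 CpGs (10.2%) in the ATO and 5530 (9.25%) in the control library. Such a test compares the reads of 1 library and says nothing of animals.

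Gaps exceeded read counting error in both libraries, at every level. At CpGs whose mean of the 4 levels lay between 20 and 80%, the SD of the gap was 16.0 points in each library, against the 10.5 (ATO) and 10.6 (control) points that binomial counting alone gives at these levels and depths. The mean squared standardised gap, which is close to 1 under counting error, was 3.07 in the ATO and 2.86 in the control library. Counting error here takes each read as a separate molecule. Whether duplicate reads were removed is not stated, and their part in this excess was not tested. At a lowest coverage of 10 to 14 reads it was 2.52 in the ATO and 2.30 in the control library. With 80 reads or more it was 4.94 in the ATO and 4.51 in the control library. Part of the gap was shared by the libraries. The square root of the covariance of their gaps was 7.51 points at 20 to 80%.

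The share of large gaps was highest in the middle of the methylation scale. At a mean level of 40 to 60%, 13.9% of CpGs in the ATO and 13.3% in the control library had a gap of at least 25 points. At 60 to 80% it was 11.9% in the ATO and 10.5% in the control library. At 20 to 40% it was 7.43% in the ATO and 8.69% in the control library. Toward the ends the share fell, to 5.50% in the ATO and 4.66% in the control library at 80 to 90%. At 90 to 95% it was 1.31% in the ATO and 0.93% in the control library. Below 5% and at 95% or above the mean leaves no room for a gap of 25 points, so the 0 CpGs there follow from the class bounds. The SD of the gap was also highest at 40 to 60%. It was 17.8 points against 11.1 in the ATO library and 17.9 against 11.4 in the control library at 40 to 60%. At 95% or above it was 4.98 against 4.05 in the ATO and 4.92 against 4.04 in the control library.

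CpGs with few neighbours more often differed between strands. Among the 2414 CpGs with no other listed CpG within 100 bp, 6.79% in the ATO and 6.55% in the control library had a gap of at least 25 points. Among the 8662 with over 20 neighbours the share was 1.56% in the ATO and 1.75% in the control library, with values falling in order between. Level and depth move with density: CpGs with no neighbour had a mean level of 77.2% and a median lowest coverage of 20 reads, and those with over 20 neighbours 12.4% and 38 reads. Among CpGs of 20 to 80% alone, the share was 13.0% in the ATO and 13.7% in the control library with no neighbour. It was 10.2% in the ATO and 10.6% in the control library with 11 to 20 neighbours. With over 20 neighbours it was 6.31% in the ATO and 7.21% in the control library, at a median lowest coverage of 75 reads. The standardised gap showed no such fall. It was 2.41 in the ATO and 2.37 in the control library with no neighbour, and 3.90 in the ATO and 3.22 in the control library with over 20. The part of depth in the density pattern was not tested further.

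**Figure D2:**
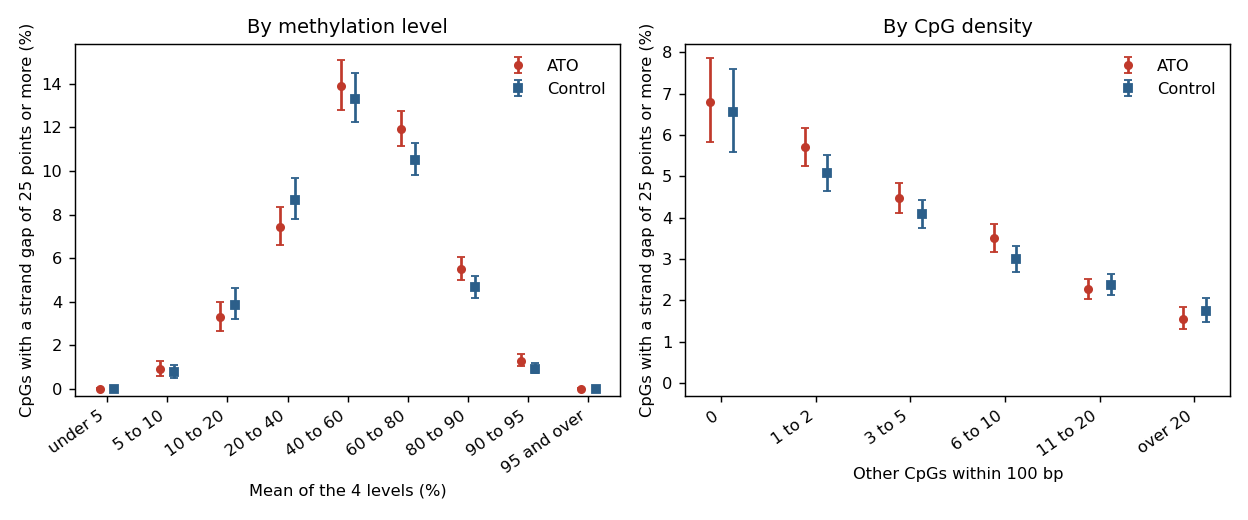
Share of CpGs with a strand gap of at least 25 points (vertical, %) by the mean of the 4 levels (left) and by the number of other CpGs within 100 bp (right), for the ATO library (circles) and the control library (squares), with exact 95% binomial intervals. The share peaks at 13.9% in the ATO and 13.3% in the control library at 40 to 60%, and falls from no neighbour to over 20 neighbours in both.

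Whether a gap repeats was read by choosing CpGs in 1 library and looking at the other. Of the 341 CpGs called in the control, 155 (45.5%, interval 40.1 to 50.9) had a gap of at least 25 points of the same sign in the ATO library, and 2 had one of the opposite sign. Of the 435 called in the ATO library, 180 (41.4%, interval 36.7 to 46.2) had one of the same sign in the control, and 3 of the opposite sign. Over all the CpGs, a gap of 25 points in a given direction had an average share of 1.82% in the ATO and 1.70% in the control library. Most called CpGs lay at 20 to 80%, 329 of the 435 in the ATO and 269 of the 341 in the control library. There a gap of 25 points in either direction was found at 11.3% in the ATO and 10.8% in the control library. The share over all CpGs is thus a low standard for the called ones. The size shrank in the second library. CpGs called in the control had a mean gap of 43.3 points there and of 24.0 points in the same direction in the ATO library. Without a call, repetition was weaker. Of the 2026 CpGs with a gap of at least 25 points in the control, 18.4% had one of the same sign in the ATO library. Between libraries the gaps of all CpGs gave a Pearson r of 0.16 and a Spearman rho of 0.087, and those at 20 to 80% gave 0.22 and 0.14. At 20 to 80% r was 0.19 at a lowest coverage of 10 to 14 reads, 0.11 at 15 to 19 and 0.52 at 80 or more.

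In total 134 CpGs were called between strands in both libraries, each with the same strand higher in both. Of these, 79 had F higher and 55 had R higher. There were 0 with opposite signs. If the 134 were independent, counting would allow up to 2.24% of them. Some lie close together and share reads, so the true limit is higher. Their mean gap in size was 47.8 points in the ATO and 48.5 points in the control library. Their median level was 56.7%, and 88.8% of them lay between 20 and 80%, against 23.0% of all 59759 CpGs. They were deep, with a median lowest coverage of 40 reads against 25. They had a median of 5 neighbours against 7. A call needs depth and room for a gap, so these features are partly set by the call itself. They lay at 95 places more than 1000 bp apart. Of the 22 places with more than 1 such CpG, 20 had a single direction. The 68 stretches with at least 100 of the CpGs, none more than 10000 bp from the next, held 17.9% of all CpGs and 50 of the 134.

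**Figure D3:**
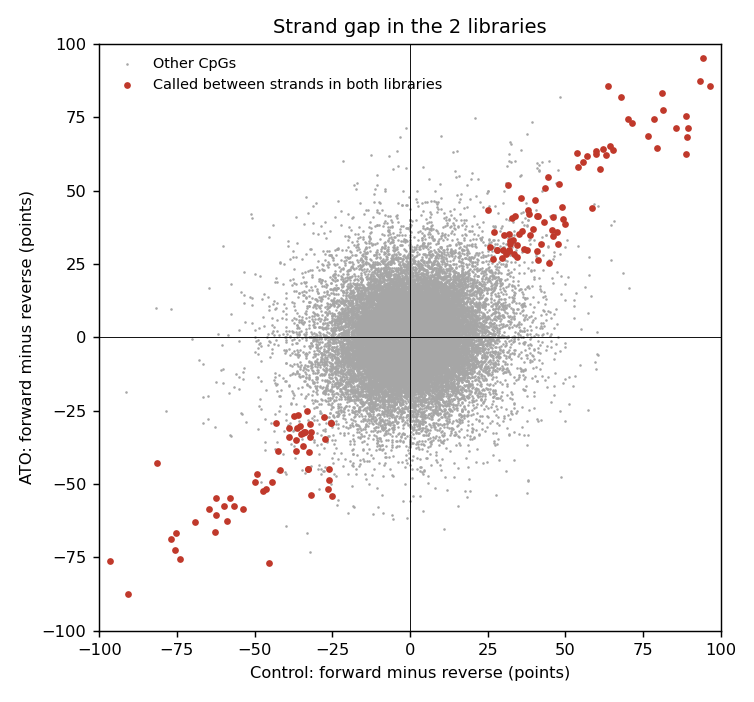
Strand gap (F minus R, points) in the ATO library (vertical) against the control library (horizontal) for 59759 CpGs; large points mark the 134 CpGs called between strands in both. All 134 lie in the 2 quadrants where the sign is the same, 79 with F higher and 55 with R higher, while the other CpGs form a round cloud around 0.

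The CpGs with the largest repeated gaps, several of them in the same stretch of chromosome 11, had 1 strand nearly full and the other nearly empty. On chromosome 11 at bases 3031355 and 3031356 (mm9), F was methylated in 23 of 23 reads and R in 46 of 970 (4.74%) in the ATO library. In the control F was methylated in 25 of 25 reads and R in 57 of 986 (5.78%). The gap was 95.3 points in the ATO (adjusted p = 1.8e-25, Fisher's exact test with Benjamini-Hochberg adjustment) and 94.2 points in the control library (adjusted p = 3.9e-26). A CpG 38 bp upstream, at 3031317, had the reverse pattern. There F read 4.57% over 460 reads and R 91.9% over 37 reads in the ATO library, and in the control F read 6.50% over 400 reads and R 97.3% over 37 reads. The CpGs 5 bp to either side were methylated on both strands. At 3031312 the ATO library had 85.5% on F and 90.03% on R, and the control 89.8% on F and 92.2% on R. At 3031322 the ATO library had 91.1% on F and 87.9% on R, and the control 89.3% on F and 88.6% on R. Coverage on R was 622 and 660 reads at these CpGs in the ATO library, and 37 at the CpG between them. In the control it was 604 and 660, and again 37 between. The strand with few C or T calls here thus lay between CpGs with many calls on the same strand.

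The same form was seen at most of the other CpGs named by this ranking. On chromosome 10 at 21862746 F had 90.3% over 31 reads and R 4.68% over 2179 reads in the ATO library, against 100% over 44 and 3.44% over 1948 reads in the control. On chromosome 13 at 3372304 F had 91.4% over 35 reads and R 8.30% over 1711 reads in the ATO library, against 90.4% over 52 and 9.40% over 1532 reads in the control. On chromosome 5 at 33078063 F had 90.9% over 33 reads and R 3.55% over 169 reads in the ATO library, against 100% over 25 and 6.76% over 74 reads in the control. In these 3 the deeper strand was the unmethylated one. The CpG on chromosome 8 at 124347400 differed from them, since its strands were covered about equally. It had 87.0% on F over 23 reads and 9.52% on R over 21 reads in the ATO library, against 100% over 25 and 18.8% over 16 reads in the control. A CpG 2 bp before it had 100% on F and 90.5% on R in the ATO library, against 100% on both in the control.

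With R higher, chromosome 11 also held the CpG at 3040230, with 7.36% on F over 516 reads and 83.6% on R over 67 reads in the ATO library. In the control it had 3.56% over 449 and 100% over 77 reads. On chromosome 5 at 33081936 the ATO library had 20% on F over 185 reads and 92.6% on R over 27 reads, and the control 19.7% over 152 and 95.2% over 21 reads. These 2 again had the deeper strand less methylated. On chromosome 8 at 19699744 the strands were closer in depth, with 5.32% on F over 94 reads and 80.9% on R over 68 reads in the ATO library. The control had 8.57% over 105 and 82.4% over 74 reads. On chromosome 11 at 3062563 the deeper strand was the methylated one in both libraries. There the ATO library had 15.8% on F over 38 reads and 84.6% on R over 104 reads, and the control 18.2% over 11 and 94.9% over 79 reads. The 10 named CpGs had adjusted p-values between 1.2e-72 and 9.4e-05 (Fisher's exact test). They were not spread evenly. Those on chromosome 11, at 3031355, 3031317, 3040230 and 3062563, lay in a single stretch from 3023700 to 3099742. It held 502 of the CpGs and 9 of those called in both libraries. The CpG on chromosome 10 at 21862746 lay in a stretch of 257 CpGs, from 21862351 to 21883719.

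Coverage moved with the gap over the whole set of 134 as well. In 83 of them 1 strand was at least 2 times deeper than the other in both libraries, 61.9% of the set against 40.8% of all CpGs. In 58 of the 83 the deeper strand was the less methylated one and in 25 the more methylated one. CpGs at the same place share reads, so these are not counts of separate cases. For example, the 9 CpGs of the chromosome 19 place described below were all among the 58. A count by place was not made. Over all 24392 CpGs with such an imbalance the mean gap, deeper minus shallower strand, was -0.043 points in the ATO and -0.053 points in the control library. At 20 to 80% it was 0.40 points in the ATO and 0.15 points in the control library. For 88 of the 134 another CpG of the set lay within 50 bp that was not itself called in both. The more methylated strand had under 0.5 times the coverage of that neighbour on the same strand at 14 of the 88 in the ATO (15.9%) and 12 in the control library (13.6%). For the less methylated strand it was 4 in each library. Among 49064 other CpGs it was 0.71% on F and 0.73% on R in the ATO library, and 0.66% on F and 0.65% on R in the control. The part of this loss of calls in the gaps was not tested.

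At some places several CpGs in a row differed between strands. Of the 134 CpGs, 61 lay at places with more than 1. The 5 places with at least 4 CpGs called in both libraries are given here, picked after their values were seen. On chromosome 19, from 10057252 to 10057314, 9 CpGs in a row were called in both libraries, and the next 12 leaned the same way without being called in both. Over the 9, F was at 100% in the ATO library with 26 to 31 reads, and R between 25.5 and 40.4% with 106 to 118 reads. In the control F lay between 85.7 and 100% with 11 to 14 reads, and R between 21.4 and 32.4% with 107 to 122 reads. The CpGs are dense here, with 26 to 28 neighbours. Since they span 63 bp, the same reads cover them, and the 9 calls are close to 1 observation per library. On chromosome 11, from 100007009 to 100007042, 5 CpGs had F at 100% with 10 or 11 reads in each library, and R between 24.5 and 37.5% in the ATO and between 10.6 and 14.3% in the control library. On chromosome 10, from 43954941 to 43955022, coverage was higher on both strands. There 4 CpGs had F between 47.0 and 94.4% and R between 15.02 and 59.1% in the ATO library, with 268 to 406 reads per strand. In the control F lay between 55.9 and 95.1% and R between 8.33 and 60.1%. Among 7 CpGs within 300 bp of this place, no others were called in both libraries. On chromosome 12, from 24485888 to 24485900, R was the higher strand. There 4 CpGs had F between 15.2 and 21.8% and R between 43.6 and 55.9% in the ATO library. In the control F lay between 10.9 and 20.8% and R between 47.9 and 59.8%. Among 57 CpGs within 300 bp of this place, no others were called in both libraries. At 24485885, just before it, the gap was -9.12 points in the ATO and 1.09 points in the control library. At 24485902, just after it, the gap was -20.4 points in the ATO and -21.0 points in the control library. On chromosome 8, from 19876950 to 19876961, 4 of 6 CpGs were called in both libraries, each with F higher. At these 4, F lay between 65.9 and 76.2% and R between 30.8 and 36.7% in the ATO library. In the control F at these 4 lay between 71.4 and 80.8% and R between 32.9 and 38.5%. The row was interrupted. At 19876956 the gap was only 1.04 points in the ATO and 14.8 points in the control library, and it was called in neither. At 19876954 the gap was 26.6 points in the ATO and 46.0 points in the control library, and it was called in the control alone. R was the deeper strand over this span by far, with at least 912 reads in the ATO library against at most 43 on F.

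**Figure D4:**
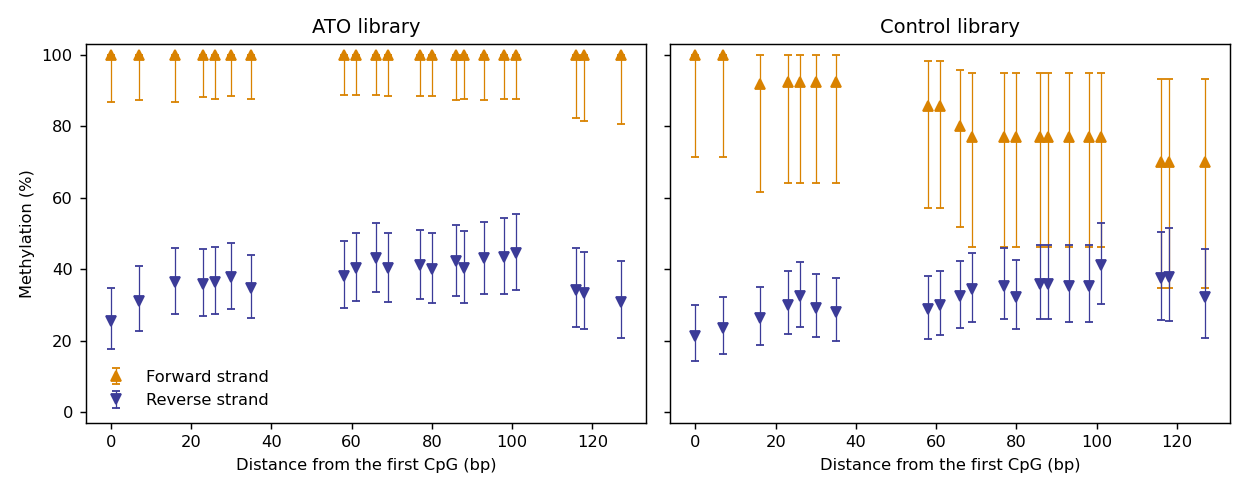
Methylation level (vertical, %) of the 21 CpGs of the chromosome 19 stretch against distance from its first CpG (bp), on the forward strand (upward triangles) and the reverse strand (downward triangles), in the ATO library (left) and the control library (right); bars are exact 95% binomial intervals. In the ATO library F is at 100% throughout, and over the first 9 CpGs R stays between 25.5 and 40.4%; in the control F falls along the stretch to 70.0% with wide intervals, since its coverage is 10 to 15 reads.

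Adjacent CpGs had more similar gaps the closer they lay, up to 100 bp. At 20 to 80%, the gaps of adjacent CpGs within 10 bp correlated at r = 0.55 in the ATO and 0.53 in the control library. At 26 to 50 bp r was 0.28 in the ATO and 0.26 in the control library, and at 51 to 100 bp it was 0.19 in the ATO and 0.16 in the control library. Between libraries, the gap of a CpG in the ATO library and that of its neighbour within 10 bp in the control correlated at 0.21. These are descriptions over pairs of CpGs that share reads.

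The largest cluster read on both strands was methylated to nearly the same level on both. It lay on chromosome 17, from 39979959 to 39983480, and held 372 CpGs in 3522 bp. Its median coverage in the ATO library was 380.5 reads on F and 2047 on R, and in the control 256.5 on F and 1915 on R. Over all 59759 CpGs the medians were far lower, at 39 on F and 58 on R in the ATO library. In the control they were 36 and 54. The reason for the high depth of this cluster, and its part in the levels, was not tested. The mean level in the ATO library was 21.7% on F and 23.9% on R, and in the control 18.4% on F and 19.4% on R. Of the 372 CpGs, 86.8% in the ATO and 89.8% in the control library were alike within 10 points. By Fisher's exact test with adjustment, 0 had a called gap of 25 points in either library, while 81 in the ATO and 47 in the control library had an adjusted p under 0.05 at any size. Close CpGs share reads here, so these are not separate observations. The largest single gap was 36.2 points in the ATO and 33.6 points in the control library.

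The study set the methylation profile of arsenic-exposed offspring against that of controls. Here the 2 strands give that comparison as 2 separate readings of the same CpG. Both strands were lower on average in the ATO library. On F the mean was 52.9% in the ATO and 53.6% in the control library, a difference of -0.69 points (SD between CpGs 11.2). On R it was 52.8% in the ATO and 53.6% in the control library, a difference of -0.79 points (SD 9.86). With 1 CpG kept per 300 bp the differences were much larger, at -1.58 points on F and -1.62 on R, against these -0.69 and -0.79 points. The ATO library was lower on F on 16 of 19 autosomes and on R on 18 of 19. By level the strands ran in parallel. At 40 to 60% the difference was -2.76 points on F and -2.79 on R, and at 60 to 80% it was -2.52 on F and -2.77 on R. At 80 to 90% it was -1.68 on F and -1.84 on R. At 90 to 95% it was -0.67 on F and -0.72 on R. Under 40% the difference was small or positive. At 20 to 40% it was -0.074 points on F and -0.27 on R, and at 10 to 20% it was 0.49 on F and 0.63 on R. At 5 to 10% it was 0.30 on F and 0.049 on R. Below 5% it was 0.12 points on F and 0.036 on R. Other R cytosines, whose F partner did not reach the coverage minimum in both libraries, had a mean of 34.99% in the ATO and 36.3% in the control library, a difference of -1.32 points over 2104182 cytosines. Other F cytosines, whose R partner did not reach it, lay higher, at 72.8% in the ATO and 74.3% in the control library. Their difference was -1.53 points over 47597 cytosines. The sets differ in level and depth and the contrast between them was not tested.

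The mean difference between libraries was negative at CpGs with no neighbour and positive at those with over 20. With no neighbour within 100 bp the difference was -2.40 points on F and -2.31 on R. With 11 to 20 neighbours it was 0.20 points on F and -0.043 on R. With over 20 neighbours it was 0.89 points on F and 0.78 on R, with 12.9% in the ATO and 12.04% in the control library on F, and 12.7% in the ATO and 11.96% in the control library on R. Of these 8662 CpGs, 45.6% were higher in the ATO library on F and 48.6% on R. Both strands were higher at 2240 and both lower at 1231. The chromosome 17 cluster was higher in the ATO library, by 3.27 points on F and 4.58 on R, with both strands higher at 298 of its 372 CpGs and both lower at 6. Without it the CpGs with over 20 neighbours still differed by 0.79 points on F and 0.63 on R. By Fisher's exact test with adjustment, 0 of its CpGs were called between libraries on either strand at 25 points, and at any size 34 on F and 251 on R had an adjusted p under 0.05, each higher in the ATO library. R was the deeper strand there, and the part of depth in these 2 counts was not tested. The 372 CpGs of the cluster span 3522 bp and share reads. The counts of its CpGs given here are therefore not counts of separate observations.

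Single CpGs were compared between libraries with Fisher's exact test on each strand, adjusted over all 2312276 cytosines with 10 or more reads in both libraries. Of all these cytosines 2.65% were called at a difference of at least 25 points, 1.73% lower and 0.916% higher in the ATO library. Among the CpGs read on both strands, 393 were lower and 204 higher on F, and 410 were lower and 234 higher on R (1.08% of R cytosines in all). On both strands 93 CpGs were called lower and 35 higher in the ATO library, with 0 in opposite directions. That is 128 of the 1113 CpGs called on at least 1 strand. The second strand mostly leaned the same way, with a smaller difference. Of the 410 called lower on R, 341 (83.2%) were also lower on F. They averaged -36.7 points on R and -19.2 points on F, and 41.0% reached 25 points on F. Of the 234 called higher on R, 177 (75.6%) were also higher on F, with averages of 38.4 points on R and 16.2 on F. Over all 59759 CpGs the differences on F and R correlated at r = 0.22. They had the same sign at 41.7%, opposite signs at 34.1% and a difference of 0 on a strand at 24.2%. At 20 to 80% r was 0.30, with the same sign at 60.4% and opposite signs at 38.5%. F and R of a library come from the same tissue sample, so these are repeat readings of 1 library, not replicates.

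**Figure D5:**
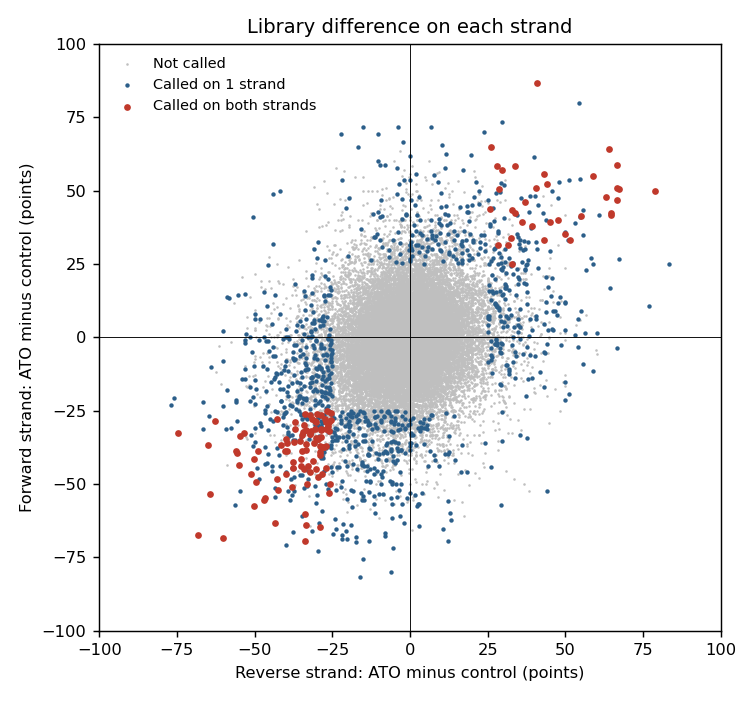
Difference between libraries (ATO minus control, points) on the forward strand (vertical) against the reverse strand (horizontal) for 59759 CpGs; large points mark CpGs called on both strands and medium points those called on 1. All 128 called on both lie where the directions are the same, 93 lower and 35 higher in the ATO library; many CpGs called on 1 strand have a difference near 0 on the other.

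CpGs called lower on both strands averaged 45.3% on F and 46.6% on R in the ATO library, against 84.9% on F and 83.6% on R in the control. They lay on 19 chromosomes, at 58 places more than 1000 bp apart. Those called higher on both averaged 82.6% on F and 83.1% on R in the ATO library, against 35.8% on F and 37.5% on R in the control, at 21 places. Between strands, 1 of the 93 and 1 of the 35 were called in the ATO library and 0 in the control (Fisher's exact test with adjustment). Of all 13735 CpGs at 20 to 80%, 329 were called in the ATO and 269 in the control library. Choosing CpGs called in the same direction on both strands itself favours similar levels on the strands. Neither these counts nor the median gaps that follow therefore test strand agreement. The median gap of the lower ones was 6.52 points in the ATO and 5 points in the control library, and that of the higher ones 6.30 points in the ATO and 10 points in the control library.

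Among the 5 named losses, the CpG on chromosome 9 at 66441824 had 20% on F and 10.5% on R in the ATO library, over 10 and 19 reads. In the control it had 87.5% and 78.6%, over 16 and 14 reads. The best covered was on chromosome 2 at 35346884, with 36.1% on F over 61 reads and 36.3% on R over 102 reads in the ATO library. In the control it had 93.6% over 47 and 86.4% over 88 reads (Fisher's exact test, adjusted p = 1.4e-07 on F and 1.2e-09 on R). Within 200 bp of it, 20 of 23 other CpGs read on both strands were lower on both. The others were on chromosome 12 at 25488054 (20% on F and 40% on R in the ATO, 88.2% and 100% in the control library), chromosome 2 at 155286224 (25% on each strand in the ATO, 78.3% and 89.5% in the control library) and chromosome 9 at 38761612 (41.3% and 39.5% in the ATO, 84.9% and 94.4% in the control library).

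Among the 5 named gains, the CpG on chromosome 9 at 56285255 had 82.9% on F over 35 reads and 86.4% on R over 22 reads in the ATO library. In the control it had 18.5% over 27 and 22.2% over 18 reads (Fisher's exact test, adjusted p = 7.7e-05 on F and 0.0043 on R). Of 13 others within 200 bp, 9 were higher on both strands and 6 were called on both. On chromosome 8 at 126986409 both strands were at 100% in the ATO library, against 50% on F and 21.1% on R in the control, over 18 to 27 reads. The remaining gains were on chromosome 3 at 84915198 (93.5% and 78.0% in the ATO, 41.2% and 33.8% in the control library), chromosome 14 at 121785519 (94.7% and 93.0% in the ATO, 38.9% and 50% in the control library) and chromosome 15 at 59810111 (75.6% and 100% in the ATO, 33.3% and 35.3% in the control library). Across these 10 CpGs and both strands the adjusted p-values were between 1.2e-09 and 0.032 (Fisher's exact test).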

How the data were processed

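Per the submitters' processing notes, the tools were bcl2fastq, Bowtie2 and Bismark 0.19.0, which aligns bisulfite reads and counts C and T, with the mouse build mm9. Per the labels' protocols, DNA was captured with the mouse SureSelect Methyl-Seq kit and bisulfite-treated. The sources used here do not give trimming, duplicate removal or the program behind the tables. Per the file headers, the deposited coverage is the raw count of C and T calls per cytosine and strand. The authors deposited C and T calls each as percent of coverage. The methylated count was recovered as coverage times percent, and 100% of products were whole within the 0.005 points of rounding. Tests and intervals cover counting error only. If duplicates remain, reads are not independent molecules, and tests on reads understate that error as well.

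F at a base was paired with R at the next base. Neighbours are other CpGs listed in either library, at any coverage, within 100 bp on each side. Levels are unweighted means over CpGs. Fisher's exact tests were two-sided with Benjamini-Hochberg adjustment, over the 61956 CpGs of all chromosomes between strands and over 2312276 cytosines between libraries. The tests were checked on simulated data with known gaps and binomial counting error only. The real gaps spread wider than that, so the check gives no rate of false calls for these data. Named CpGs are the 5 per direction, at least 1000 bp apart, with the largest smaller gap among those called in both libraries, and likewise between libraries among those called on both strands; the rule also allowed CpGs called with opposite signs, and there were 0. The set and the rules were chosen with earlier results of these data known. No count model was used. Python 3.11.15, numpy 2.4.6, pandas 2.3.3, scipy 1.17.1, numba 0.67.0 and matplotlib 3.10.9 were used.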

Additional observations from a re-analysis of the deposited data

How the results depend on the processing

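Limits: there was 1 library per group, so leaving out a replicate could not be run. No paired analysis was possible because each group has 1 library. A coverage as low as 10 reads limits the precision of single levels. Pairs are ATO then control.

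At a coverage minimum of 5, the shares alike were 71.7% and 72.0%, the shares with a gap of at least 25 points 7.15% and 6.93%, 48.6% of CpGs called in the ATO library repeated in the control, the mean differences were -0.75 points on F and -0.90 on R, and the standardised gap in the ATO library was 2.82. At 20 they were 83.6% and 83.9%, 1.80% and 1.66%, -0.58 points on F and -0.65 on R, 405 cytosines were called between libraries on R, and the standardised gaps were 3.41 and 3.20. At 30 they were 86.7% and 87.0%, 1.18% and 1.15%, -0.50 points on F and -0.54 on R, with 224 and 200 CpGs called between strands, 85 in both, 300 cytosines called between libraries on F and 269 on R, and standardised gaps of 3.73 and 3.53.

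Alike meant 55.4% and 55.4% at under 5 points, and 93.7% and 93.9% at under 20 points. A gap of at least 20 points was found at 6.34% and 6.12%, and of at least 40 points at 0.65% and 0.65%, with 197 and 155 called and 62 in both. At an adjusted p under 0.01, 255 and 212 were called, of which 57.6% of those in the ATO library repeated in the control and 59.9% of those in the control in the ATO library, with 301 cytosines called between libraries on F, 384 on R and 79 CpGs on both.

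With 1 CpG kept per 300 bp (12530), 67.1% and 68.6% were alike, 6.69% and 6.01% had a gap of at least 25 points, 110 and 91 were called and 34 in both, 188 were called between libraries on F, 192 on R and 30 on both, the differences were -1.58 points on F and -1.62 on R, and the standardised gap in the ATO library was 2.83. Without the deepest CpGs the standardised gaps were 2.79 and 2.57. With strand coverages within 2 times of each other (24286), 79.4% and 79.5% were alike, 3.36% and 3.18% had a large gap, 126 and 108 were called and 40 in both, 253 were called between libraries on F, 256 on R and 62 on both, the differences were -0.90 points on F and -0.90 on R, and the standardised gap in the ATO library was 2.81. Fewer CpGs remain in these subsets, which lowers counts by construction.

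Chosen after seeing the data: without stretches of 100 or more CpGs 84 were called between strands in both, 39.6% of those called in the control repeated in the ATO library and 36.7% the other way, and without the chromosome 17 cluster the dense CpGs differed by 0.63 points on R. With levels taken from the ATO library, 11.7% of control CpGs at 40 to 60% had a large gap. With windows of 250 bp, 8.24% of CpGs with no neighbour and 1.91% of those with over 20 had one in the ATO library. With 50 bp, 0 of 19 CpGs with over 20 neighbours had one in either library. For each of these shifts the cause was not tested. The mean difference stayed negative on both strands in each setting it was run in. The 20 named CpGs keep the same counts in each setting, so their values could not change or reverse. Only the call could change, and in the subsets of CpGs not even that. Of 131 values under alternatives, 129 were still called and 2 were not (at an adjusted p under 0.01). These CpGs were picked as the largest called ones, so this is not a test of them. At a minimum of 30, 8 of the 20 could be tested.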

Other observations

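Outside the autosomes, 1286 CpGs of chromosome X were read on both strands at 10 reads or more in both libraries. Their mean level was 66.1% in the ATO and 67.0% in the control library. A gap of at least 25 points was found at 6.30% in the ATO and 5.60% in the control library, at a median lowest coverage of 19 reads. Between strands 18 were called in the ATO and 11 in the control library, 7 of them in both. On contigs not placed on a chromosome there were 676 such CpGs, with 8 called in the ATO and 7 in the control library, 5 of them in both. Mitochondrial DNA had 228, at a mean of 3.74% in the ATO and 3.54% in the control library, with a median lowest coverage of 318 reads. None of these 228 was called between strands in either library by Fisher's exact test, and none had a gap of 25 points.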
